A study of Mus musculus with 7 samples.

Results

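The matrix metalloproteases (MMPs) Mmp2, Mmp3, Mmp10, Mmp12, Mmp13, Mmp14 and Mmp19 and the tissue inhibitors Timp1, Timp2 and Timp3 were followed in tissue next to an injury of the mouse mandible. The genes were chosen by name, and all 10 were found among the 49164 gene rows with counts. Between mice that lack interleukins 17A and 17F and their WT littermates, 0 of the 9 members tested passed the edgeR test, beside 0.156% of all genes tested, and 1 member was too low to be tested. Collagenase 3 (Mmp13) and stromelysin 1 (Mmp3) had the lowest fitted ratios among the members tested, and both rested largely on 1 WT library. Timp2 and the membrane protease Mmp14 stood at nearly the same mean level in both groups.

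Polyadenylated RNA was sequenced from 7 samples with a stranded mRNA kit. All mice carried a 1.5-mm drill hole in the mandible, and the muscle and soft callus around it were taken on day 5. The WT group had 4 libraries and the IL17KO group, labelled Il17af-/-, had 3. The sources used here give no age, sex or strain background. They also do not say whether the libraries came from different animals, and the p-values then measure only library-to-library spread, which may be technical.

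MMPs are zinc proteases that are made as inactive proenzymes and cut collagens, proteoglycans and other matrix proteins. TIMPs bind their active site and block it. In healing bone and muscle, MMPs clear damaged matrix and callus cartilage, open the way for cells and vessels, and release growth factors. Interleukin 17 is known to raise several MMPs in fibroblasts and chondrocytes, often together with interleukin 1 or tumour necrosis factor.

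The libraries held 18539904 to 26271176 counts. Levels are given as CPM, counts scaled to library size, and 3 counts are 0.111 to 0.162 CPM (a floor that covers counting error only). Il17a had 0 counts in every library, and Il17f had 1, 1 and 0 in the IL17KO libraries and 0 in the 4 WT libraries, too few to test the genotype labels. All 25 muscle markers had counts in every library. Their summed level ran from 16210 to 55850 CPM in WT and from 32590 to 108900 in IL17KO. WT replicate 3 was the lowest and IL17KO replicate 3 the highest of the 7. The 10 cartilage markers summed to 35.6 to 80.35 CPM. Of them Sox9 was at 21.6 to 38.3 CPM and Acan at 2.21 to 32.7, the collagens Col2a1 and Col10a1 reached at most 1.19 and 2.21, and Ihh and Matn1 were at 0 in some libraries. In whole tissue, fewer cells of a type and less RNA per cell cannot be told apart.

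Compared per kb of exon length, the inhibitors Timp1 and Timp2 and the enzymes Mmp14 and Mmp2 had the highest means of the members. Exon length here joins the exons of all annotated transcripts of a gene. It was 7237 bases for Mmp12 and 1722, 1801 and 2673 for Mmp10, Mmp3 and Mmp13. With a shorter length Mmp12 would stand higher, so the order depends on this choice. In WT, Timp1 stood at 188.4 ± 70.9 CPM per kb (SD, n = 4), Timp2 at 120.9 ± 10.7, Mmp14 at 98.3 ± 23.8 and Mmp2 at 79.95 ± 17.2. Mmp19 followed at 41.1 ± 24.5, Mmp12 at 19.9 ± 11.6, Timp3 at 11.9 ± 0.936 and Mmp13 at 10.1 ± 10.45. Mmp3 stood at 2.61 ± 2.38 and Mmp10 at 0.242 ± 0.1515. The ranges of each neighbouring pair in this order overlapped in WT, except for Mmp3 and Mmp10. The order is that of the WT means. In IL17KO, Timp3 (14.3 ± 2.585, n = 3) had a higher mean than Mmp12 (12.8 ± 5.10).

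**Figure D1:**
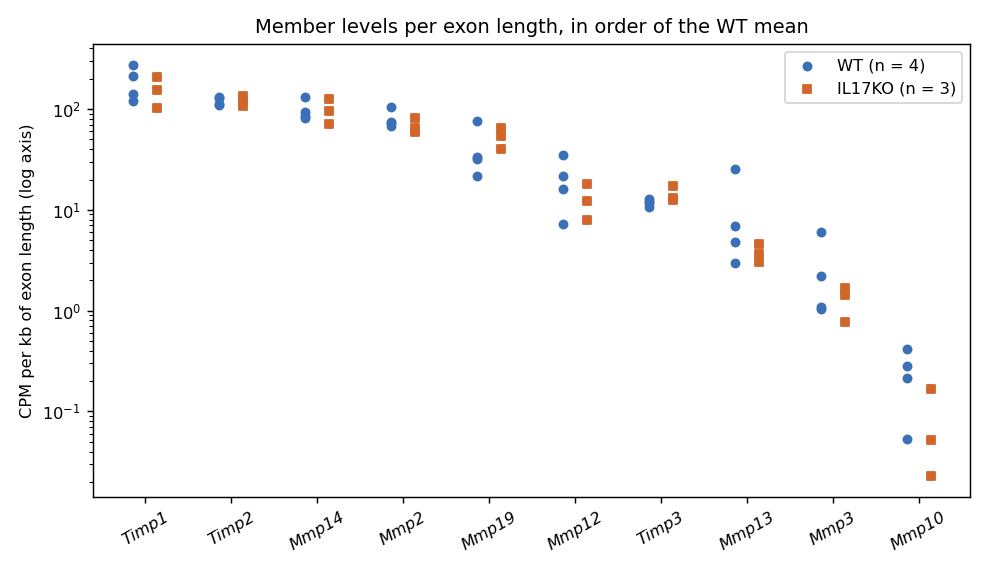
Level of each member in CPM per kb of exon length (log axis) in the 4 WT libraries (circles) and the 3 IL17KO libraries (squares), ordered by the WT mean. Timp1 has the highest WT mean (188.4 CPM per kb) and Mmp10 the lowest (0.242).

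Mmp14, Timp2 and Mmp2 work as a unit at the cell surface: Mmp14 (MT1-MMP) binds Timp2 and this complex holds pro-Mmp2, which a free Mmp14 then activates. Mmp14 (ENSMUSG00000000957) was at 558, 512, 793 and 481 CPM in WT replicates 1 to 4 and at 565, 754 and 421 in IL17KO replicates 1 to 3. Its highest values were in WT replicate 3 and IL17KO replicate 2, and the groups overlapped. On the log2 scale IL17KO over WT was −0.02, with a 95% interval from −0.57 to 0.54 (edgeR adjusted p = 0.998), and its sign was not stable: it was 0.35 without WT replicate 3 and IL17KO replicate 3.

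Timp2 (ENSMUSG00000017466) was the steadiest member. It was at 496.7, 431.7, 516.3 and 439.6 CPM in WT and 466.4, 522.2 and 415.4 in IL17KO, so that its highest library was only 1.26 times its lowest. Its log2 fold change was −0.01, with an interval from −0.34 to 0.32 (edgeR adjusted p = 0.998), and 0.11 without the same 2 libraries.

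Mmp2 (ENSMUSG00000031740), the gelatinase that cuts denatured collagen and basement membrane collagen, was at 242.8, 253.6, 355.1 and 226.6 CPM in WT. In IL17KO it was at 220.0, 275.4 and 201.8 CPM. WT replicate 3 stood above the other 6 libraries, which lay between 201.8 and 275.4. Its log2 fold change was −0.21 ± 0.19 (SE; edgeR adjusted p = 0.987), −0.06 without WT replicate 3 and 0.04 without IL17KO replicate 3 as well.

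The secreted enzymes Mmp13, Mmp12, Mmp3 and Mmp10 lie close together on chromosome 9 in the GENCODE annotation of GRCm38. Because these 4 members varied most between libraries, the sequence upstream of their starts is shown, taken from RefSeq on GRCm38.p6. The submitters' processing notes name GRCm39 for the counts, another build. Each line gives the 150 bases before a start on the plus strand, with the letters TGAGTCA or their reverse complement TGACTCA in capitals. These letters are the classical binding element of AP-1, the Fos and Jun factor downstream of inflammatory cytokines. The regions are chr9:7272364-7272513 for Mmp13, chr9:7347224-7347373 for the downstream of the 2 listed Mmp12 starts, chr9:7445672-7445821 for Mmp3 and chr9:7502192-7502341 for Mmp10.
Mmp13: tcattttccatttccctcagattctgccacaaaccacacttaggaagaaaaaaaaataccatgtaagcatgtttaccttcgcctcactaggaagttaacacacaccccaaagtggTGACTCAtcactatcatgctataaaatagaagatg
Mmp12: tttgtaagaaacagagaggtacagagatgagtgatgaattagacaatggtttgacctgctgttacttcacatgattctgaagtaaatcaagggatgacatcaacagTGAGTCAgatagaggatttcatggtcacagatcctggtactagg
Mmp3: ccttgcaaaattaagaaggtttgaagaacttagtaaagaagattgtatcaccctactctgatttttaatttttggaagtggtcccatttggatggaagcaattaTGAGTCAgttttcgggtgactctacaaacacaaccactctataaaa
Mmp10: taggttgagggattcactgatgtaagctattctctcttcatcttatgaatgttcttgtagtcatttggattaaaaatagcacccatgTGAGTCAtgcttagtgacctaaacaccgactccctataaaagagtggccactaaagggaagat

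Counting the base before the start as −1, the first of these letters lies at −35 in Mmp13, −44 in Mmp12, −46 in Mmp3 and −63 in Mmp10. Upstream sequence was found for 8 members with 9 starts, and the letters occur on either strand within 250 bases upstream in 4 of these starts, the 4 shown. They do not occur in that window for Mmp14, Timp1, Timp2, Timp3 or the other Mmp12 start. Of the Mmp12 starts, only the one that holds the letters was printed. Of all 32851 promoters, 4.46% hold them, and of the 14753 promoters of tested genes, 3.57%. A match of letters is a description of the sequence and not a binding site.

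Mmp13 (ENSMUSG00000050578), the main fibrillar collagenase of bone and hypertrophic cartilage in mice, was at 7.91, 12.8, 68.3 and 18.7 CPM in WT replicates 1 to 4. In IL17KO it was at 9.86, 8.19 and 12.2 CPM. WT replicate 3 was 5.33 times the median of the other WT libraries, WT replicate 1 was below every IL17KO library, and the groups overlapped. The means were 26.9 ± 27.9 CPM in WT (SD, n = 4) and 10.1 ± 2.02 in IL17KO (n = 3).

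The log2 fold change of Mmp13 was −1.42 ± 0.68 (SE), with an interval from −2.96 to 0.13 (edgeR adjusted p = 0.987, unadjusted 0.0678). Without WT replicate 3 the WT mean was 13.1 ± 5.38 CPM and the log2 fold change −0.40. With the muscle level as a covariate it was −0.58, and without both WT replicate 3 and IL17KO replicate 3 it was −0.55. It kept a negative sign under each alternative run, between −1.72 and −0.40.

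Mmp3 (ENSMUSG00000043613), stromelysin 1, cuts proteoglycans and activates other pro-MMPs. It was at 1.98, 3.999, 10.9 and 1.855 CPM in WT and 1.39, 2.59 and 3.02 in IL17KO, from raw counts between 34 and 228. Here too WT replicate 3 was the highest library, at 5.53 times the median of the other WT libraries, and WT replicates 1 and 4 lay within the IL17KO range. The log2 fold change was −1.002 ± 0.64 (edgeR adjusted p = 0.987) and −0.16 without WT replicate 3.

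Mmp10 (ENSMUSG00000047562), stromelysin 2, was close to the detection floor. It had 2, 9, 15 and 10 counts in WT and 7, 1 and 2 in IL17KO, and 3 of the 7 libraries were under 3 counts. It did not pass the filter on low counts and is therefore the only member without a value in the test of all genes. Without the filter its log2 fold change was −1.54 (unadjusted p = 0.0345, edgeR adjusted p = 0.865), in a fit that called 0.148% of genes and 0 of the 10 members.

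Mmp12 (ENSMUSG00000049723), the macrophage elastase, differed from the other 3 in which library was highest. It was at 51.95, 253, 155.5 and 116.5 CPM in WT and at 87.98, 57.84 and 131.3 in IL17KO. Its highest value was in WT replicate 2 and its lowest in WT replicate 1, so the WT group spanned the whole IL17KO range. Its log2 fold change was −0.64 ± 0.48 (edgeR adjusted p = 0.987). With 1 library left out it ran from −0.99 (without IL17KO replicate 3) to −0.23 (without WT replicate 2). All 10 macrophage markers had counts in every library, and their summed level ran from 1729 to 2569 CPM in WT and from 1656 to 2270 in IL17KO. WT replicate 1 had the lowest macrophage sum of the WT group and WT replicate 2, with 2015 CPM, the second lowest. The part of these cells in the Mmp12 level was not tested.

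Mmp19 (ENSMUSG00000025355), a broad matrix protease found in macrophages and vessels, was the only tested MMP of the list with a positive fitted change. It was at 114, 272, 119 and 75.8 CPM in WT and 229, 190 and 141 in IL17KO. Of the WT libraries only replicate 2 lay within or above the IL17KO range. The log2 fold change was 0.36 ± 0.40, with an interval from −0.54 to 1.26 (edgeR adjusted p = 0.987). With 1 library left out it ran from 0.15 without WT replicate 4 (unadjusted p = 0.681) to 0.85 without WT replicate 2 (unadjusted p = 0.00801, edgeR adjusted p = 0.969), and it was 0.19 without IL17KO replicate 1.

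**Figure D2:**
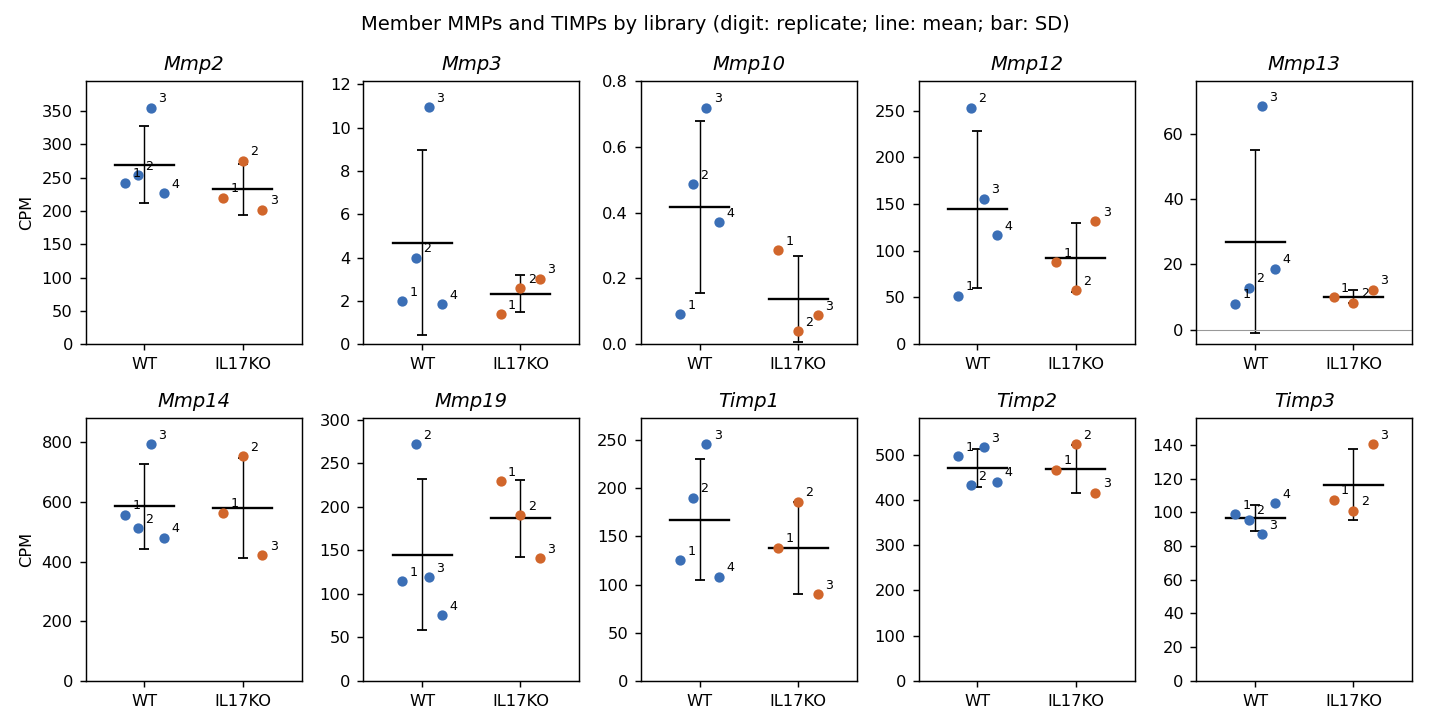
CPM of each member in every library, with the replicate number beside each point, the group mean as a line and the SD as a bar. WT replicate 3 lies far above the other WT libraries for Mmp13 (68.3 CPM) and Mmp3 (10.9 CPM), and WT replicate 2 is highest for Mmp12 and Mmp19.

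Timp1 (ENSMUSG00000001131) is the inducible inhibitor, raised by cytokines and injury. It was at 125.5, 190.1, 245.5 and 108 CPM in WT and 138, 186 and 90.2 in IL17KO. WT replicate 3 was highest and IL17KO replicate 3 lowest, the same libraries that bound the muscle level in the reverse order. The log2 fold change was −0.28 ± 0.33 (edgeR adjusted p = 0.987), and it was 0.04 when the fit included the muscle level and 0.20 without both libraries.

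Timp3 (ENSMUSG00000020044), which stays bound to the matrix and also blocks ADAM and ADAMTS proteases, had the reverse order at its ends. It was at 98.8, 95.5, 87.1 and 105.4 CPM in WT and 107.4, 101.1 and 140.3 in IL17KO. Its lowest library was WT replicate 3 and its highest IL17KO replicate 3. The log2 fold change was 0.27 ± 0.14, with an interval from −0.06 to 0.59 (edgeR adjusted p = 0.987, unadjusted 0.0938), and 0.06 without these 2 libraries.

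In the annotation Timp1 lies within Syn1 and Timp3 within Syn3, each on the opposite strand, and Cep295nl overlaps Timp2 on the same strand. These genes had at most 166, 15 and 71 counts in any library. On the opposite strand Mmp12 also overlaps Mmp1b, which had 0 counts, and Mmp19 overlaps Tmem198b, with 266 to 444 counts. Whether the counting used the strand is not given in the sources used here, so reads of such pairs may not be separable.

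By edgeR 0 of the 9 members tested passed the adjusted threshold, against 0.156% of all 15399 tested genes (24 genes). By DESeq2 and limma voom 0 members passed as well, against backgrounds of 0.208% and 0.416%. No tested member had an unadjusted p under 0.05 by edgeR, DESeq2 or limma voom in these fits, against 3.04%, 1.95% and 9.44% of genes. The groups overlapped for all 10 members, and over all tested genes 3.89% did not overlap. Of the 9 members 7 had negative log2 fold changes, with a median of −0.21, beside 49.4% negative and a median of 0.00259 over all tested genes. When the fit included the muscle level, the members' median was 0.04, and with WT replicate 3 and IL17KO replicate 3 removed it was 0.06.

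**Figure D3:**
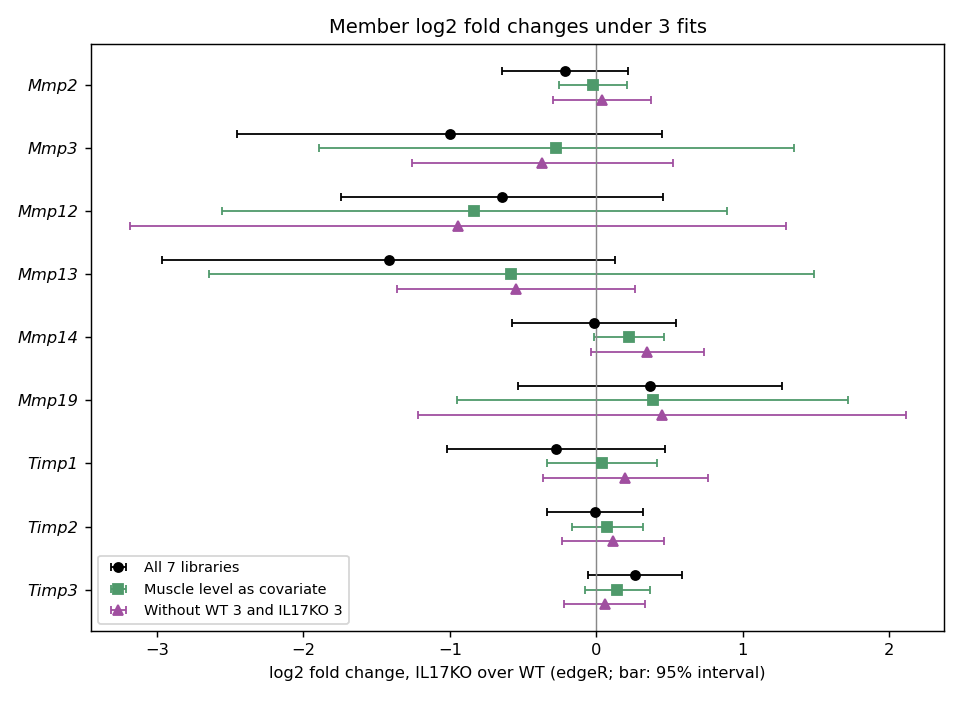
Log2 fold change of IL17KO over WT for the 9 tested members, with 95% intervals, in 3 fits: all 7 libraries, muscle level included, and WT replicate 3 and IL17KO replicate 3 removed. Every interval includes 0, and Mmp13 moves from −1.42 to −0.58 and −0.55.

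Although single members differed several-fold between libraries, the ratio of summed enzymes to summed inhibitors, at the exon lengths used, stayed between 0.745 and 0.865. The sums were made up mostly of Mmp14, Mmp2, Timp1 and Timp2. They also depend on the length given to each gene, such as 7237 bases for Mmp12 and 1801 for Mmp3. With a shorter length Mmp12 would weigh more in the ratio and in the shares below, which was not computed. The sum of the 7 MMPs per kb of exon length ran from 193.7 to 325.7 CPM per kb over all libraries, and that of the 3 TIMPs from 225.4 to 419.7. WT replicate 3 was the highest for both. The ratio of the sums was 0.745, 0.833, 0.776 and 0.783 in WT and 0.838, 0.771 and 0.865 in IL17KO, so that the groups overlapped. Mmp14 made up 30.65% to 46.1% of the MMP sum and Mmp2 26.8% to 34.7%. The 4 chromosome 9 members made up 5.39%, 15.1%, 16.4% and 12.6% in WT and 6.94%, 4.56% and 12.5% in IL17KO. Mmp13 reached 7.85% of the MMP sum in WT replicate 3 and stayed between 1.12% and 3.605% elsewhere. On the inhibitor side, Timp1 had its largest share in WT replicate 3 (65.9%) and its smallest in IL17KO replicate 3 (45.05%).

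WT replicate 3 gave the highest value for 6 of the 10 members (Mmp2, Mmp3, Mmp10, Mmp13, Mmp14 and Timp1), beside 26.2% of all tested genes. Mmp12 and Mmp19 were highest in WT replicate 2, Timp2 in IL17KO replicate 2 and Timp3 in IL17KO replicate 3. The osteoclast markers, which include Mmp9, had counts for all 8 genes in every library. They summed to 754 CPM in WT replicate 3, between 200.3 and 409.8 in the other WT libraries and between 237 and 265 in IL17KO. The 10 neutrophil markers, of which Ly6g and Ngp were at 0 in some libraries, summed to 91.8 CPM in WT replicate 3, to between 37.6 and 70.2 in the other WT libraries and to between 25.6 and 53.2 in IL17KO. The 10 fibroblast markers had counts in every library and summed to between 5067 and 7983 CPM in WT, the highest in replicate 3, and to between 4144 and 7370 in IL17KO. In WT replicate 3 most of this sum was Fn1 (5191 CPM) and Col6a1 (1612). Pdgfra, Pdgfrb and Fbln1 were also highest of the WT group there, but Dcn (296.2 CPM), Dpt (85.0) and Pi16 (8.11) were lowest. Of the 10 fibroblast markers 5 had negative log2 fold changes. Thy1, a surface marker of fibroblasts and T cells, was the 1 called (−1.39, edgeR adjusted p = 0.0463). The Thy1 call was lost in each of the 7 fits with 1 library left out (edgeR adjusted p from 0.0684 to 0.309). It was also lost with the 1 CPM filter (0.0528) and with the replicate block (0.665). It held by DESeq2 (adjusted p = 4.85e-08), limma voom (0.00219) and limma trend (0.0291). By edgeR it held with RLE (0.0411), without a filter (0.000202) and when the fit included the muscle level (0.000898). It held too without WT replicate 3 and IL17KO replicate 3 (0.0194). The log2 fold change ran from −1.53 to −1.14 over these settings. The osteoblast markers summed to 132 CPM and the cartilage markers to 80.35 in WT replicate 3, and to at most 110.1 and 46.75 in the other libraries. Of the osteoblast markers Bglap and Bglap2 were at 0 in some libraries. The mean centred log2 CPM of the osteoblast markers was highest in IL17KO replicate 3 (0.769), above WT replicate 3 (0.535). The part of any of these cell types in the levels of the members was not tested.

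**Figure D4:**
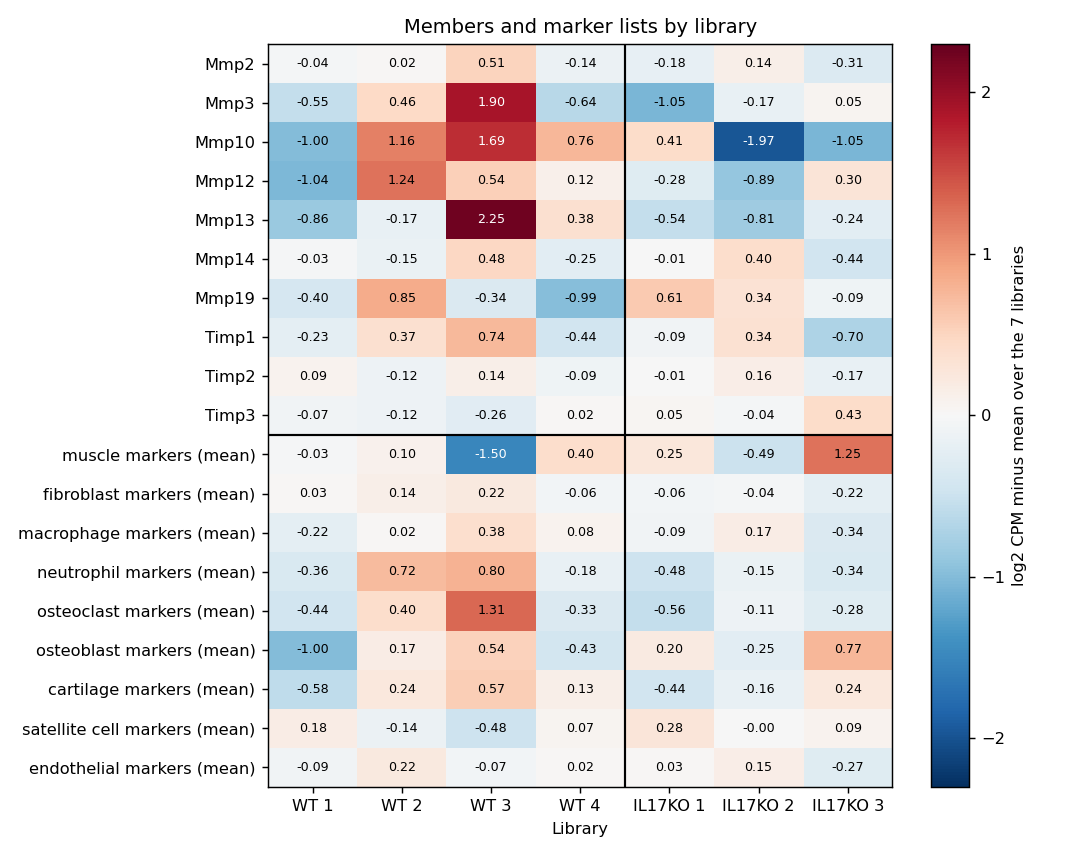
Log2 CPM of each member and mean log2 CPM of each marker list, minus its mean over the 7 libraries. Mmp13, Mmp3 and Mmp10 are 2.25, 1.90 and 1.69 above their means in WT replicate 3, where the osteoclast markers are 1.31 above and the muscle markers 1.50 below theirs.

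The tested genes with the most similar pattern were found by the smallest root mean square difference of centred log2 CPM over the 7 libraries, leaving out predicted genes. For Mmp3 they were Rufy4, Acp5 and Rnf17, at differences of 0.122, 0.342 and 0.364, where Mmp3 itself had an SD of 0.885. Acp5 encodes the tartrate-resistant acid phosphatase that marks osteoclasts. For Mmp13 they were BC147527, Rtn4r and Ccr3, at 0.375, 0.448 and 0.510 (SD of Mmp13 0.994). For Mmp12 they were Bcl2a1d, Serpina3n and Ear2, at 0.246, 0.281 and 0.293 (SD 0.745), and Bcl2a1d and Ear2 belong to families of near-identical copies whose counts are uncertain. For Mmp19 they were S100a4, the chemokine Ccl24 and Dhrs9, at 0.139, 0.225 and 0.237 (SD 0.593).

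For Mmp14 the nearest were Inf2, an actin-nucleating formin, Nectin1 and C1qtnf6, at 0.0346, 0.0441 and 0.0568 (SD 0.308). For Timp1 they were Nt5e, the ecto-nucleotidase CD73, Ptma-ps2 and Cdca5, at 0.0949, 0.0987 and 0.108 (SD 0.471). For Mmp2 they were Gmpr2, Lrwd1 and B4galt2, at 0.0317 to 0.0423 (SD 0.247). For Timp2 they were Hdlbp, Dnajc13 and Chd9, at 0.0277 to 0.0303 (SD 0.122). For Timp3 they were Aldh2, Mtmr14 and Map2k7, at 0.0325 to 0.0433 (SD 0.199). With 15399 genes and 7 libraries some genes lie close to any pattern, so these names are a description only.

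Of the other 16 MMP genes, 10 were tested and 0 passed the threshold. Mmp9, the gelatinase of neutrophils and osteoclasts, was at 41.5, 64.96, 214.9 and 49.45 CPM in WT and 21.1, 47.02 and 24.3 in IL17KO. WT replicate 3 stood apart and the groups overlapped. Its log2 fold change was −1.59 ± 0.61 (edgeR adjusted p = 0.987, unadjusted 0.0289) and −0.61 without WT replicate 3 and IL17KO replicate 3. It was the only one of the 10 with an unadjusted p under 0.05 by edgeR, beside 3.04% of all tested genes. By limma voom both Mmp9 (unadjusted p = 0.00284) and Mmp8 (0.0226) were under 0.05, beside 9.44% of all tested genes.

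The neutrophil collagenase Mmp8 had a log2 fold change of −0.53 ± 0.40, and the membrane-anchored Mmp25 and Mmp17 had −0.62 ± 0.30 and −0.40 ± 0.23. For Mmp25, at 16 to 48 counts per library, the groups did not overlap, as for 3.89% of all tested genes. Mmp28 had 0.28 ± 0.17, Mmp27 0.16 ± 0.29, Mmp11 −0.11 ± 0.11 and Mmp15 0.08 ± 0.11. Mmp23 and Mmp16 had −0.03 ± 0.21 and −0.004055 ± 0.20. Once replicate 3 of both groups was left out, the values were −0.0452 for Mmp8, −0.22 for Mmp25, −0.15 for Mmp17, 0.38 for Mmp28 and 0.31 for Mmp23. In the fit of all 7 libraries their edgeR adjusted p ran from 0.987 to 1. Mmp1a, Mmp1b and Mmp7 had 0 counts in every library, and Mmp20, Mmp21 and Mmp24 were too low to be tested.

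Among the other inhibitors 4 of 5 were tested and 0 passed. Of these 4 genes 2 had an unadjusted p under 0.05 by edgeR, beside 3.04% of all tested genes. Timp4, expressed in heart and muscle, was at 0.368, 0.865, 0.144 and 1.41 CPM in WT and 1.64, 0.627 and 6.21 in IL17KO. Its lowest value was in WT replicate 3 and its highest in IL17KO replicate 3, again the ends of the muscle level. Its log2 fold change was 1.97 ± 0.825 (edgeR adjusted p = 0.987, unadjusted 0.0423) and 0.32 without these 2 libraries. Tfpi2, a secreted protease inhibitor, averaged 36.5 ± 7.41 CPM in WT and 26.3 ± 4.94 in IL17KO (log2 fold change −0.47 ± 0.19, edgeR adjusted p = 0.987, unadjusted 0.0367), and its log2 fold change was −0.28 without them. The membrane-anchored inhibitor Reck had −0.07 ± 0.145 and Pzp 0.44 ± 0.74, and A2m was too low to be tested.

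Genes that act before or beside the MMPs gave 0 calls by edgeR as well. Over all tested genes 49.4% had negative log2 fold changes. Of 7 tested genes of pro-MMP activation 5 had negative log2 fold changes (median −0.14). Plau, the urokinase that starts the plasmin cascade, had −0.25 ± 0.21, plasma kallikrein Klkb1 −0.23 ± 0.31 and Plat −0.14 ± 0.21. Of 8 genes of collagen breakdown by cathepsins, Fap or uptake 5 were negative (median −0.05), with −0.52 ± 0.42 for Ctsk, the osteoclast collagenase, 0.13 ± 0.19 for Ctsb, 0.17 ± 0.27 for Itga11 and −0.10 ± 0.16 for Itgb1. Of 14 MMP substrates 10 were negative (median −0.0956). Col2a1, at 6 to 22 counts per library, had −1.13 ± 0.34 (unadjusted p = 0.00955, edgeR adjusted p = 0.987) with no overlap of the groups. Over all tested genes 3.04% had an unadjusted p under 0.05 by edgeR, and for 3.89% the groups did not overlap. Elastin had −0.80 ± 0.47 and Tnc −0.24 ± 0.35. With the muscle level as a covariate the medians of activation, collagen breakdown and substrates were 0.0455, 0.0281 and 0.00282. With WT replicate 3 and IL17KO replicate 3 left out, they were 0.163, 0.0747 and 0.166. In that fit the sign turned for Plau (0.0424), Plat (0.16), Tnc (0.22) and Itgb1 (0.00948). Ctsk was then at −0.0049, Ctsb at 0.29, Itga11 at 0.53, Klkb1 at −0.30, Col2a1 at −1.27 and elastin (Eln) at −1.26.

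Of 15 tested AP-1, ETS and other regulators of MMP genes 11 were negative (median −0.14), beside 49.4% of all tested genes. Fosl2, an AP-1 subunit of bone and fibroblasts, was at 87.25, 82.2, 94.2 and 85.8 CPM in WT and 66.9, 70.97 and 49.9 in IL17KO. The groups did not overlap, and the log2 fold change was −0.48 ± 0.14 (unadjusted p = 0.0074, edgeR adjusted p = 0.987). Ets2 was at 72.8 ± 5.48 and 60.6 ± 3.48 CPM, also without overlap (log2 fold change −0.26 ± 0.11, unadjusted p = 0.0361, edgeR adjusted p = 0.987). Of the 15 genes 2 had an unadjusted p under 0.05 by edgeR. Over all tested genes that share was 3.04%, and for 3.89% the groups did not overlap. Fosl1 had −0.48 ± 0.29 and Etv5 −0.21 ± 0.17. Leaving out the same 2 libraries gave −0.31 for Fosl2, −0.27 for Ets2, −0.11 for Fosl1 and −0.0336 for Etv5.

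Of 11 cytokines and receptors known to raise MMPs 9 were negative (median −0.14), and 4 had an unadjusted p under 0.05 by edgeR. Over all tested genes these shares were 49.4% and 3.04%. Il1b was at 8.275, 21.2, 20.96 and 18.25 CPM in WT and 4.13, 8.62 and 3.95 in IL17KO, where only WT replicate 1 reached the IL17KO range. Its log2 fold change was −1.62 ± 0.39 (edgeR adjusted p = 0.693), and DESeq2 called it lower (adjusted p = 0.00939). Il6 had −0.97 ± 0.275, Il1a −1.26 ± 0.425 and the interleukin 1 receptor Il1r1 −0.44 ± 0.18, each with an edgeR adjusted p of 0.987. For Il6 and Il1a the groups did not overlap, as for 3.89% of all tested genes. Both had few counts. Il6 had 31 to 47 in the WT libraries and 18 to 28 in IL17KO, and Il1a had 15 to 32 and 5 to 13. With WT replicate 3 and IL17KO replicate 3 left out, Il1b was at −1.32 (unadjusted p = 0.0583), Il6 at −0.97, Il1a at −1.29 and Il1r1 at −0.17 (unadjusted p = 0.226).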

How the data were processed

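Per the file headers, the authors deposited raw counts for each gene beside a normalized signal, which the values show to be counts over a size factor. Per the submitters' processing notes reads were handled with DESeq2, HTSeq, TopHat, cutadapt, FastQC and bcl2fastq on GRCm39, with settings and roles that the sources used here do not give. Table columns were matched to samples by library name, and the replicate numbers used here follow the sample titles. The numbers differ for some libraries: WT replicate 3 is column WT5, and IL17KO replicate 3 is column U17KO5. The column named WT3 is a different WT library. The test was edgeR 4.0.16 under R 4.3.3 (quasi-likelihood, two-sided, TMM, filterByExpr, robust), with Benjamini-Hochberg adjustment over all 15399 genes tested and a threshold of 0.05. SE is the log2 fold change over the square root of F. CPM use TMM-scaled library sizes. Exon lengths and overlaps came from GENCODE M21 (GRCm38), and upstream sequences from RefSeq on GRCm38.p6, found for 8 of 10 members.

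The alternatives were DESeq2 1.42.0, limma 3.58.1 (voom with quality weights, or trend on log2 of the deposited signal plus 1), RLE, 2 other filters, the replicate block, a covariate for muscle level, left-out libraries and a looser adjusted p of 0.10. Each named list gives up to 4 genes with the smallest p, except that all tested other MMPs and inhibitors are named. Some genes that this rule takes are not reported here. For each member the 3 nearest patterns are named. Members and lists were chosen with earlier results of these data known. Libraries of the same group differed by a mean chi-square per gene of at least 23.1, so none was a repeat deposit. The fit was tested on simulated data.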

Additional observations from a re-analysis of the deposited data

Results flagged for a closer look

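Among the 24 genes examined, the members and the tested other MMPs and inhibitors, 3 had 1 WT library far from the other 3, each time WT replicate 3. Mmp9 was at 214.9 CPM there and between 41.5 and 64.96 in the other WT libraries. Mmp23 was at 34.4 CPM there and between 20.7 and 21.9 elsewhere in WT. Mmp25 was at 2.303 CPM there and between 1.46 and 1.56 elsewhere in WT. Chance marks about 1 in 20 such groups, and the genes are not independent of each other. For Mmp13 and Mmp3 the gap of WT replicate 3 did not pass this limit.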

How the results depend on the processing

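Under every alternative run 0 members passed the adjusted threshold, and 0 of 9 had an unadjusted p under 0.05 in the test on all 7 libraries. With other settings some did: Mmp3 with the replicate block, Mmp10 without a filter and without IL17KO replicate 1, Mmp12 without WT replicate 1, Mmp13 without WT replicates 1 and 2 in turn, Mmp19 without WT replicate 2 and Timp3 without IL17KO replicate 2. Of 148 fold changes of single members under alternatives 134 kept their sign. Mmp14 was at 0.071 with limma voom, 0.22 when the muscle level was a covariate, 0.35 with replicate 3 of both groups left out, and −0.25 to 0.16 with 1 library left out (0.15 without WT replicate 3). Timp2 was at 0.0177, 0.0753 and 0.11 in the same settings and −0.096 to 0.0612 with 1 library left out (0.02 without WT replicate 1 and 0.03 without WT replicate 3). Timp1 was at 0.038 with the covariate and 0.20 without both libraries, where Mmp2 was at 0.0373. The cause was not tested. The median of the members ran from −0.375 to −0.04 with 1 library left out. The count of genes called, 24, became 58 (DESeq2), 64 (limma voom) and 42 (no filter). It was 12, 11 and 12 without WT replicates 1, 2 and 4, 8, 14 and 14 without IL17KO replicates 1, 2 and 3, and 21 without WT replicate 3. With the replicate number as a block it was 2. Deviations of same-numbered libraries had correlations of 0.143, −0.298 and −0.560, which gave no sign of pairing by the numbers in the sample titles. The replicates numbered 3 were also the ends of the muscle level, so these correlations cannot settle whether samples were paired. Mmp10 could be tested only in some settings, since its counts of 1 to 15 are near the floor.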
